A study of Homo sapiens with 7 samples.

Results

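Circadian clock genes were examined in human T47D/A1-2 breast cancer cells as a set of 9 genes: CLOCK, ARNTL, PER2, PER3, CRY1, CRY2, DBP, TEF and BHLHE40. The genes were chosen by name, as listed symbols of the RNA-seq table, with earlier results of these data known. They make up 9 of its 26175 genes. Their transcription start sites (TSSs) were the calls on the gene's strand inside the gene's locus widened by 1000 nt. Each gene had 1 such call, and so 9 of the 10391 gene TSSs called in these cells belong to the set. Counted as a call within 1000 nt of an annotated transcript start, a gene TSS was found for 9758 of the 26175 genes and for all 9. The authors searched for gene TSSs only around mRNA starts, and the 26175 genes include non-coding ones. Antisense start sites were joined to a gene TSS by the identifier that the call lists share. These are upstream antisense TSSs (uaTSSs), within 1000 nt upstream on the other strand, and downstream antisense TSSs (daTSSs), within 2000 nt downstream on the other strand.

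All values come from 1 growth condition. T-47D is an established luminal breast cancer line, and A1-2 is a derivative of it that overexpresses rat glucocorticoid receptor and carries an integrated MMTV luciferase reporter. Cells were grown in DMEM with 10% FBS and then moved to 5% charcoal-stripped serum for at least 24 hours, with no hormone named. TSS positions came from Start-seq, which sequences short capped nuclear RNA, of replicate 1 of 2, and transcript levels came from RNA-seq, as a merge of its 3 replicates. The labels call the cells T-47D, and the A1-2 derivative is named by the study's paper. A line derived in this way stands for 1 genetic background, and no untreated control, time course or synchronisation step belongs to the data, so no comparison of conditions and no rhythm can be read from them.

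The circadian clock is a transcriptional feedback loop that runs in most cells of the body, including mammary epithelium. CLOCK and ARNTL (also called BMAL1) form a dimer that activates genes through the E-box, CACGTG, and its variant the E'-box, CACGTT. Among its targets are the PER and CRY genes, whose proteins return to the nucleus and inhibit the dimer. Further targets are DBP and TEF, activators of the PAR bZIP family that bind the D-box, and BHLHE40 (DEC1), a repressor that competes for E-boxes. A second loop runs through the REV-ERB and ROR nuclear receptors, which act on ARNTL through the ROR element.

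Levels are given as FPKM, fragments per kilobase of transcript scaled to the number of mapped fragments, a unit corrected for length so that levels of different genes can be set side by side. Each gene has 1 merged value, without an error between replicates and with unknown depth, so the order of neighbouring levels cannot be called beyond error and no test was possible. In bulk RNA, fewer cells that express a gene and less RNA per cell cannot be told apart. The cells carried the markers of their label: 7 of 7 luminal epithelial markers were at or above FPKM 1, from 113 for FOXA1 to 1140 for KRT8. None of 4 basal or mesenchymal markers reached FPKM 1, with VIM highest at 0.864 and KRT5 and KRT14 listed at 0. Of 3 leukocyte and endothelial markers none reached it either, the highest being PTPRC at 0.0208, and CD3E was listed at 0.

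Transcripts of all 9 clock genes were found in T47D/A1-2 cells, and apart from BHLHE40 at levels below those of most genes with a called TSS. Every one of the 9 was at or above FPKM 1, against 46.9% of all genes in the table. The genes were chosen with earlier results of these data known, so this count may follow from the choice. Their median was FPKM 4.6 and they ranged from 2.34 to 72.4, a spread of 30.9-fold. The median was FPKM 0.528 over all genes, of which 7888 were listed at 0, and 16.6 over the 9758 genes with a called gene TSS. 8 of the 9 lay below that second median. On the scale of log2(FPKM + 0.1), the median of the 9 minus the median of genes with a gene TSS was -1.83.

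The activators differed by a factor of 2.23. CLOCK, a bHLH-PAS protein with acetyltransferase activity, had FPKM 4.52 (rank 9577 of 26175). ARNTL, its partner, had FPKM 10.1 (rank 7313). Among the repressors, PER2 had FPKM 4.54 and PER3 had FPKM 2.34, the lowest of the 9. PER2 was 1.94 times PER3. The cryptochromes, which bind the CLOCK and ARNTL dimer directly, stood at FPKM 6.19 for CRY1 and 12.6 for CRY2, a ratio of 2.03. The level of CRY2 was the second highest of the set. The PAR bZIP genes were close to each other, with FPKM 4.01 for DBP and 4.6 for TEF, a ratio of 1.15. Together with CLOCK and PER2 they made a group of 4 genes between FPKM 4 and 5, at percentiles of 62.3 to 63.5 among all genes. BHLHE40 stood apart at FPKM 72.4, rank 1413 and a percentile of 94.6, which is 5.76 times the level of CRY2. It was the one gene of the 9 above the median of genes with a gene TSS. Among those genes its percentile was 87.1, whereas the other 8 had percentiles from 11.7 for PER3 to 42.2 for CRY2.

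**Figure D1:**
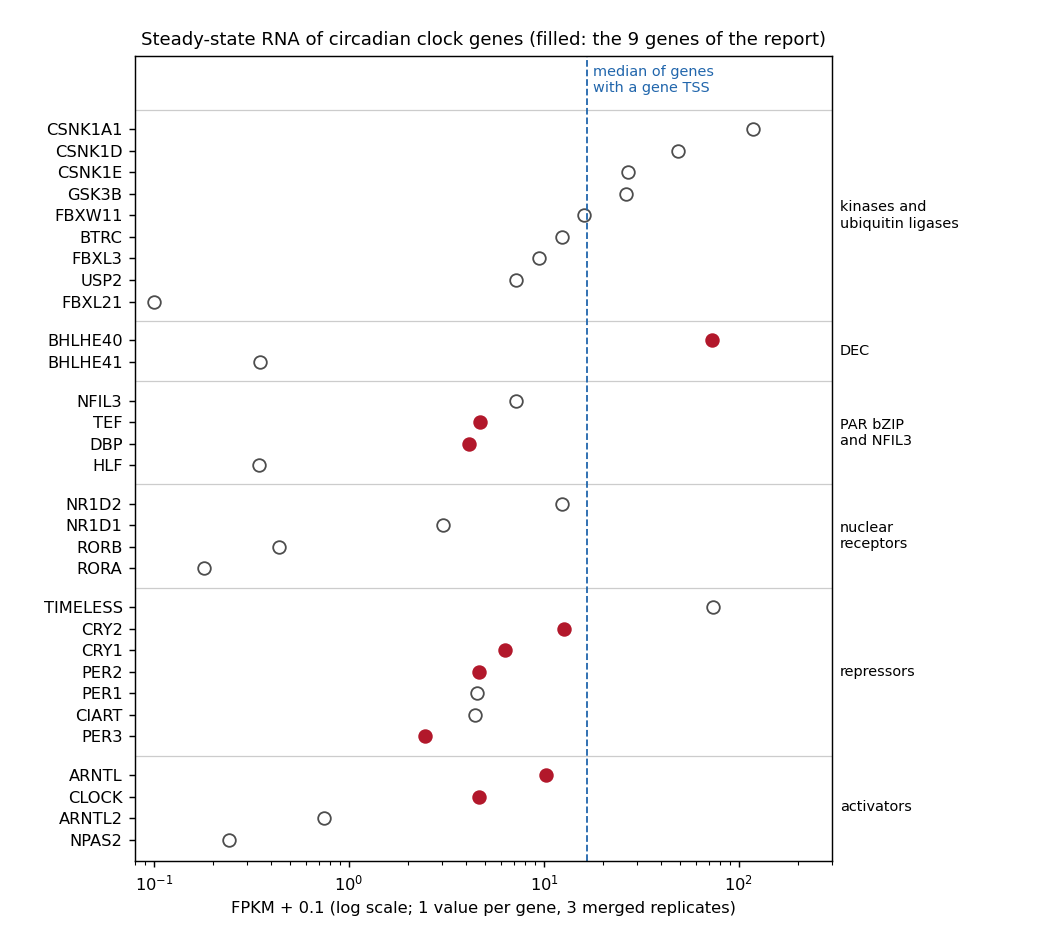
Merged FPKM of 30 genes of the circadian clock by role, plotted as FPKM + 0.1 on a log axis with 1 point per gene and no error bars, because the replicates were merged. Filled points are the 9 genes described and open points the other clock genes. The dashed line is the median of genes with a called gene TSS, FPKM 16.6, and of the filled points only BHLHE40 (72.4) lies to its right.

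The other genes of the pathway were taken from a list of 30 clock genes, of which 21 lie outside the set of 9. Of these 21, 14 were at or above FPKM 1 and 7 were below, with a median of 7.05. The paralogues of the activators were low: NPAS2, which can replace CLOCK, had FPKM 0.143 and ARNTL2 had 0.644, and neither had a called gene TSS. All 7 repressors reached FPKM 1. They ran from PER3 at 2.34 to TIMELESS at 73.4, a gene better known for its part in DNA replication, and PER1 (4.45) and CIART (4.3) lay near PER2. Of 4 nuclear receptors of the second loop, 2 reached FPKM 1. The REV-ERB gene NR1D2 was highest at 12.2, and RORA was lowest at 0.0797. Beside DBP and TEF, the third PAR bZIP gene HLF had FPKM 0.245, and NFIL3, a repressor that binds the same D-box, had 7.12. The contrast was widest in the DEC pair, where BHLHE41 (DEC2) had FPKM 0.248 beside 72.4 for BHLHE40. Of 9 kinases, ubiquitin ligases and a deubiquitinase that act on PER and CRY proteins, 8 reached FPKM 1. Casein kinase CSNK1A1 was highest at 118 and FBXL21 was listed at 0. So every group of the list except the repressors had 1 or more genes below FPKM 1. This rests on how the list was grouped, as the DEC pair was kept apart although BHLHE40 is also a repressor.

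Start-seq placed initiation at each of the 9 genes at a single nucleotide, and 6 of the 9 calls lay within 60 nt of an annotated transcript start, against 76.9% of all gene TSSs. The first of each pair of capitals in the sequences that follow is the base before the called start. The second is the called start itself. Each stretch runs 5′ to 3′ on the gene's strand from 20 nt upstream, in the GRCh37 sequence, which has the same chromosomes as hg19.
CLOCK, chr4:56411937-56411966, minus strand: ctgggttttctggagttggCTctggcgctc
ARNTL, chr11:13299328-13299357, plus strand: aagtaggttagtggtgcgaCAtttagggaa
PER2, chr2:239197426-239197455, minus strand: gcgcggtcacgttttccacTAtgtgacagc
PER3, chr1:7844446-7844475, plus strand: cggccgggcgggagttctgGGcggccgggc
CRY1, chr12:107487558-107487587, minus strand: tttgcttccaagggacggcCAccagtcggc
CRY2, chr11:45869018-45869047, plus strand: gtggctggagcagtctggaCAgtcatggcg
DBP, chr19:49140569-49140598, minus strand: gcgagagctgcagattttgCAagagccagg
TEF, chr22:41777403-41777432, plus strand: ctctgccccctccccccgcGAccagactcg
BHLHE40, chr3:5021128-5021157, plus strand: ttggctcgcacggcgcagaCAgaccgcgca
A pyrimidine before a purine, the core of the initiator element, stood at 6 of the 9 starts, against 66.1% of all gene TSSs. In 5 of these 6 (ARNTL, CRY1, CRY2, DBP and BHLHE40) the letters were CA, which stood at 30.3% of all gene TSSs, and in PER2 they were TA. CLOCK (CT), PER3 (GG) and TEF (GA) lacked the pair. A TATA sequence, searched as TATAA or TATAT starting from -35 to -24, was found at 0 of the 9 and at 3.0% of all gene TSSs.

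Antisense initiation was called at 6 of the 9 genes. A uaTSS was called at 6, against 53.1% of gene TSSs in general, and a daTSS at 4, against 28.4%. Both were called at 4 genes (ARNTL, PER2, CRY2 and BHLHE40), where 17.5% of gene TSSs had both. CLOCK and TEF had a uaTSS only. Neither was called at 3 genes (PER3, CRY1 and DBP), where 35.9% of gene TSSs had neither. No gene of the set had a daTSS without a uaTSS, where 11.0% of gene TSSs did. All 9 lay at least 8771 nt from the next called gene TSS, and among the 8056 gene TSSs without another within 5000 nt the shares were 58.5% with a uaTSS, 32.9% with a daTSS, 20.7% with both and 29.3% with neither. With 9 genes these counts are a description, and they are too few to set the set apart from other genes. The genes with both calls had FPKM 4.54 to 72.4, those with a uaTSS only 4.52 and 4.6, and those with neither 2.34 to 6.19, so the ranges overlapped.

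**Figure D2:**
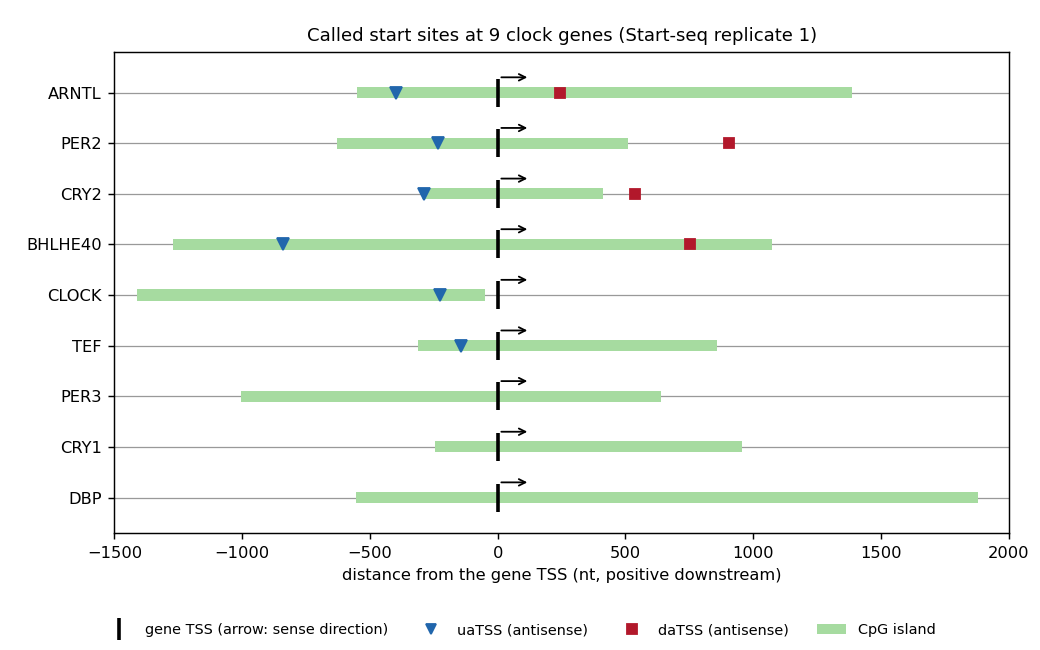
Called start sites at the 9 clock genes, to scale, by distance in nt from the gene TSS with downstream positive. Black bars with arrows are gene TSSs, blue triangles uaTSSs, red squares daTSSs and green bars CpG islands. ARNTL, PER2, CRY2 and BHLHE40 have both kinds of antisense start, and the island of CLOCK ends 48 nt before the start.

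The antisense starts are shown by the sequence around them, since this is where their initiators can be compared with those of the genes. Each stretch is read on the antisense strand, from 20 nt before the call, with the base before the start and the start in capitals.
CLOCK uaTSS, chr4:56412150-56412179, plus strand: aacggaaccagcccgcggcCGgcaacggcg
ARNTL uaTSS, chr11:13298941-13298970, minus strand: tgccctctccctttcccctCAggtctccca
PER2 uaTSS, chr2:239197649-239197678, plus strand: tcgtcctccctagtggtctCAtccacttcc
CRY2 uaTSS, chr11:45868739-45868768, minus strand: aggctggggctgtccgcggAGtgccgggag
TEF uaTSS, chr22:41777271-41777300, minus strand: gggacgggtctttttgttcTGgggactctg
BHLHE40 uaTSS, chr3:5020300-5020329, minus strand: ccgccgagcacgccgcgcgCAcctgaccgt
ARNTL daTSS, chr11:13299583-13299612, minus strand: cagcgggcacgtcgggcagGGttcttcggc
PER2 daTSS, chr2:239196511-239196540, plus strand: acttggcagccaaagtacaTCccagaaggt
CRY2 daTSS, chr11:45869567-45869596, minus strand: accaggagcccctgttctgCCactcactgg
BHLHE40 daTSS, chr3:5021893-5021922, minus strand: ccccgcagcaacagtccggCAgaggagcag
Of the 6 uaTSSs, 5 began at a pyrimidine-purine pair, against 64.7% of all 5519 uaTSSs, the exception being CRY2 with AG. Of the 4 daTSSs only that of BHLHE40 did, with CA, against 66.9% of all 2956 daTSSs. The other daTSSs began at GG in ARNTL, TC in PER2 and CC in CRY2.

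Among the activators, CLOCK (ENSG00000134852, chr4:56294068-56413076, minus strand) was called at 56411946. That position lies 153 nt downstream of the nearest annotated start, 56412099, and 1130 nt downstream of the first. Its uaTSS was called at 56412170, 224 nt upstream. CLOCK was the one gene of the 9 whose TSS was outside a CpG island. An island of 1364 nt lay upstream, from 1411 to 48 nt before the start, and covered the uaTSS and both of these annotated starts. ARNTL (ENSG00000133794, listed as BMAL1 in the annotation; chr11:13299274-13408812, plus strand) was called at 13299348, 3 nt from the annotated start. Its uaTSS at 13298950, 398 nt upstream, fell exactly on the annotated start of a long non-coding RNA, ENSG00000290083, on the other strand. Its daTSS at 13299592 lay 244 nt downstream in intron 1, since exon 1 ends 122 nt downstream of the start. The island of ARNTL measured 1939 nt and reached 1143 nt past the daTSS.

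Among the repressors, PER2 (ENSG00000132326, chr2:239152679-239197207, minus strand) was called at 239197435, 32 nt downstream of the annotated start 239197467. Its uaTSS at 239197669 was 234 nt upstream and 99 nt from the annotated start of the non-coding gene ENSG00000283635. The daTSS of PER2, at 239196531, was the farthest of the 4 at 904 nt downstream, in intron 1. PER3 (ENSG00000049246, chr1:7844489-7905240, plus strand) was called at 7844466, 23 nt upstream of the annotated start 7844489. It had the highest GC content of the 9, 74.4% within 500 nt on each side, and no antisense call. The period genes thus differed in their antisense calls. CRY1 (ENSG00000008405, chr12:107385143-107487635, minus strand) was called at 107487567 and had no antisense call. The call lay 240 nt upstream of the nearest annotated start, though inside the locus of the RNA-seq table. CRY2 (ENSG00000121671, chr11:45868669-45904799, plus strand) was called at 45869038, 9 nt downstream of the annotated start. CRY2 had both calls, the uaTSS at 45868748 (290 nt upstream, in an annotated exon) and the daTSS at 45869576 (538 nt downstream, in intron 1). The cryptochrome pair therefore split in the same way as PER2 and PER3, the gene of each pair with the higher FPKM having both antisense starts and the other none. PER1 did not follow this: its FPKM of 4.45 was close to the 4.54 of PER2, and it had no antisense call. The split is a count of 2 pairs from 1 library and was not tested.

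DBP (ENSG00000105516, chr19:49133817-49140807, minus strand) was called at 49140578, 8 nt upstream of the annotated start 49140570, in the longest island of the set (2432 nt). No antisense TSS was called there, although the annotation has a start of the pseudogene SEC1P on the other strand 750 nt upstream. TEF (ENSG00000167074, chr22:41763337-41795332, plus strand) was called at 41777423. Its first annotated start is at 41763337, 14086 nt upstream of the call, and no gene TSS was called within 1000 nt of that start. The nearest annotated start, 41777946, lies 523 nt downstream of the call, so initiation was seen at the inner promoter only and not at an annotated position. The uaTSS of TEF, at 41777280, was the closest of the 6, 143 nt upstream.

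BHLHE40 (ENSG00000134107, chr3:4938493-5026865, plus strand) was called at 5021148, 26 nt downstream of the annotated start 5021122. The locus in the RNA-seq table is wider than the gene. Its uaTSS at 5020309 lay 839 nt upstream, farther than in any other gene of the set and at a percentile of 97.8 among all uaTSS distances. Its daTSS at 5021902 lay 754 nt downstream, in an annotated exon and 13 nt from an annotated start, 5021915, of the antisense gene BHLHE40-AS1. The FPKM of BHLHE40-AS1 was 0.481, below 1, beside 72.4 for BHLHE40. Annotated transcripts of the 2 genes overlap on opposite strands. The RNA-seq libraries kept strand, but the strand setting of the FPKM estimation is not given in the sources used here, so how reads were split between the 2 genes is uncertain.

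Distances of the antisense starts were spread over the range seen elsewhere. The 6 uaTSSs lay 143, 224, 234, 290, 398 and 839 nt upstream, where the median over all 5519 was 200 nt (quartiles 127 and 329.5). TEF alone was below that median. By the annotation, the uaTSSs of CLOCK, ARNTL, PER2 and TEF lay in introns of longer transcripts, that of CRY2 in an exon and that of BHLHE40 outside the gene. The 4 daTSSs lay 244, 538, 754 and 904 nt downstream, where the median over all 2956 was 507 nt (quartiles 312.75 and 804.25). ARNTL was below the lower quartile and PER2 above the upper one. No measure of read number accompanies the calls, so whether 1 antisense start is used more than another is unknown.

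**Figure D3:**
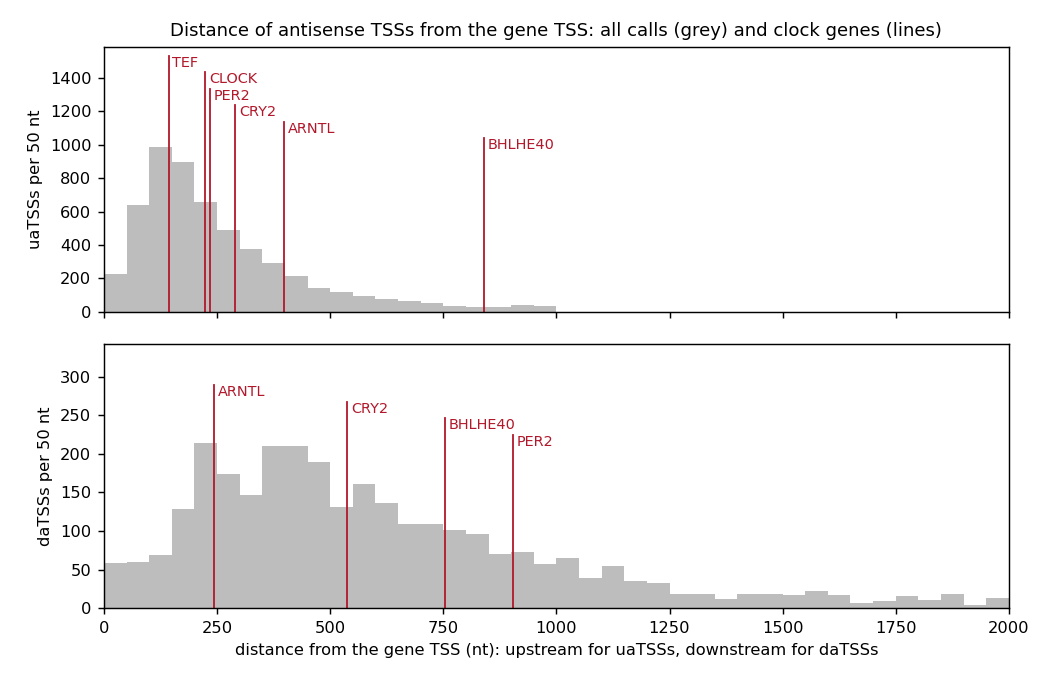
Histograms in bins of 50 nt of the distance from gene TSS to uaTSS (top, 5519 calls) and to daTSS (bottom, 2956 calls), with red lines at the values of the clock genes. The uaTSS of BHLHE40 (839 nt) lies in the far tail, and the daTSSs of ARNTL (244 nt), CRY2 (538 nt), BHLHE40 (754 nt) and PER2 (904 nt) are spread across the range.

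CpG islands, stretches rich in the CG dinucleotide where most promoters of widely used genes lie, covered 8 of the 9 gene TSSs, against 82.7% of all gene TSSs. The islands measured from 707 nt in CRY2 to 2432 nt in DBP, where the median over all islands at gene TSSs was 923 nt. Only CRY2 was below that median. All 6 uaTSSs lay in an island, as did 73.7% of all uaTSSs, that of CRY2 with 5 nt to spare before the upstream edge and that of CLOCK in the island upstream of its start. Over all daTSSs, 53.3% lay in an island. Of the 4 daTSSs here, those of ARNTL and BHLHE40 lay within the island, and those of PER2 and CRY2 lay past its downstream edge (offsets to the edge of -393 and -127 nt). GC content within 500 nt on each side of the start was above the median of 63.0% in 8 genes. It ran from 64.9% in CRY2 to 74.4% in PER3 among these, and was 53.7% in CLOCK, a percentile of 11.6. The region around the CLOCK start was thus the only region of the set with GC content below that median.

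Sequences known from clock control were then searched from 500 nt upstream to 500 nt downstream of each gene TSS. The letters searched were CACGTG for the E-box, CACGTT for the E'-box, TTATGTAA and TTACGTAA for the D-box, TAGGTCA for the ROR element, TGACGTCA for the cAMP response element, CCAAT for the CCAAT box and GGGCGG for the GC box. Each was searched on both strands, matches of different motifs did not overlap in the 9 genes, and E-box, TTACGTAA and TGACGTCA matches, which read the same on both strands, were counted once. Positions are those of the first base of the match, read along the gene, with the start at 0. A match is a run of letters and not evidence of binding, and matches were set beside the share of all 10391 gene TSSs that have them. E-boxes were found at 3 of the 9 (PER3, TEF and BHLHE40), where 20.9% of gene TSSs have 1 or more, and E'-boxes at 6 (CLOCK, PER2, CRY1, CRY2, DBP and BHLHE40), where the share is 19.0%. D-boxes were found at 2 (PER2 and PER3), where the share is 1.62%, and ROR elements at 3 (ARNTL, CRY2 and DBP), where it is 3.91%. The cAMP response element was found at 0 of the 9 and at 4.39% of gene TSSs. The general promoter elements were common in both: CCAAT boxes at 8 of the 9 and 62.0% of gene TSSs, and GC boxes at 9 of the 9 and 91.8%. E-box or E'-box letters stood at 8 of the 9 genes, ARNTL being the exception, and at 35.9% of all gene TSSs. From 250 nt upstream to 50 nt downstream they stood in PER2, CRY2 and TEF only. The share over all gene TSSs for that window was not computed for the 2 motifs together, so this count has no comparison. The E-box alone stood there at 1 of the 9, against 9.56% of gene TSSs.

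**Figure D4:**
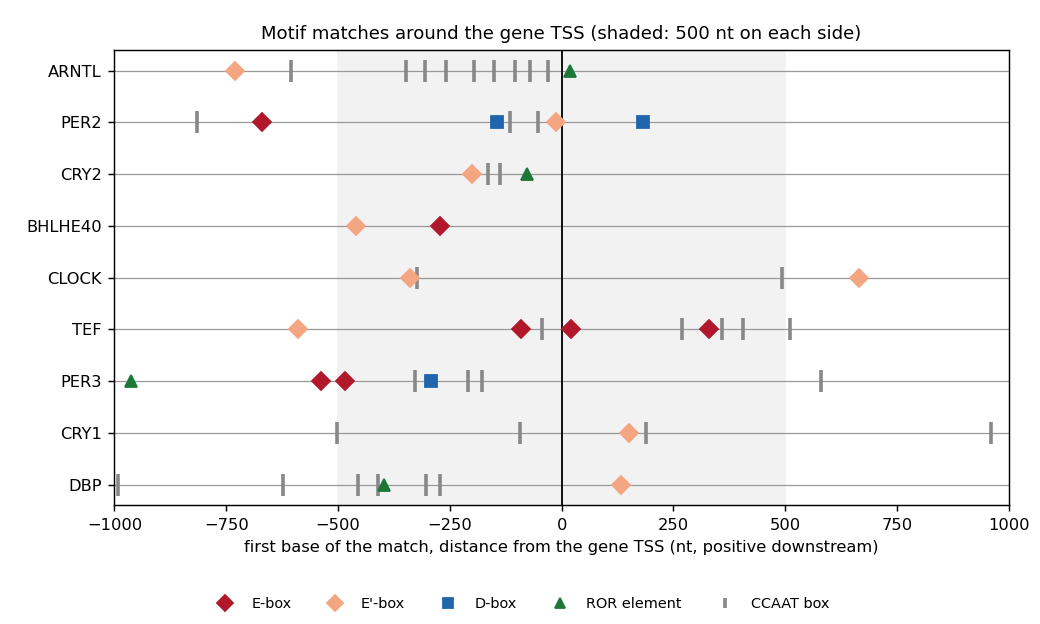
Positions of motif matches around the gene TSSs of the 9 clock genes, in nt from the start with downstream positive, with the searched window of 500 nt on each side shaded. E-boxes are red diamonds, E'-boxes orange diamonds, D-boxes blue squares, ROR elements green triangles and CCAAT boxes grey ticks. ARNTL has a row of 8 CCAAT boxes upstream of the start in the window and another outside it at -606. D-boxes appear in the window in PER2 and PER3 only.

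The PER2 promoter is printed because 3 kinds of motif met there, the D-box TTATGTAA at -144, CCAAT boxes and the E'-box at -13 being in capitals.
PER2, chr2:239197438-239197595, minus strand: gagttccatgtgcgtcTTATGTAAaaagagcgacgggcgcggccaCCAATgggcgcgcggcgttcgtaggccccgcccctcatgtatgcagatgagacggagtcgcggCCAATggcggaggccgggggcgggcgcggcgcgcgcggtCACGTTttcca
PER2, second D-box, chr2:239197236-239197265, minus strand: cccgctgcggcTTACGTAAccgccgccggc
The second D-box, TTACGTAA, stood at position 181 and is in capitals in the second line. PER2 had 2 D-boxes in its window, as many as in only 4 of the 10391 gene TSSs. An E-box was also found at -670, outside the window. PER3 had a single D-box at -292 and a pair of E-boxes at -539 and -485, the first of them outside the window, shown with the motifs in capitals.
PER3, E-boxes, chr1:7843916-7843996, plus strand: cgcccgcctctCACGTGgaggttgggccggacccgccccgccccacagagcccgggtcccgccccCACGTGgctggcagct
PER3, D-box, chr1:7844163-7844192, plus strand: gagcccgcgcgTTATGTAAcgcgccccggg
PER3 also held 12 GC boxes, a number reached by 4.14% of gene TSSs.

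The ARNTL promoter is printed for its row of CCAAT boxes, which are in capitals as ATTGG, the same letters on the other strand, and for the ROR element in capitals in the second line.
ARNTL, chr11:13298988-13299185, plus strand: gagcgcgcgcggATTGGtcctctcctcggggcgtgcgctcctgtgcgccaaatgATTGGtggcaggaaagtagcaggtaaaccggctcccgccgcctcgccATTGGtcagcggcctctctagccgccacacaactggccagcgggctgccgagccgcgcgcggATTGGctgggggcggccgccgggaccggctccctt
ARNTL, ROR element, chr11:13299356-13299385, plus strand: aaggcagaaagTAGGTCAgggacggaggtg
8 CCAAT boxes stood from -348 to -30, all of them in this orientation, and the stretch holds the first 4. As many were found at 21 of the 10391 gene TSSs (0.202%). The ROR element, at position 19, lay just downstream of the start, and E-box and E'-box letters were absent from the window of ARNTL. An E'-box lay outside the window, at -731. ROR elements were also found in CRY2 at -77 and in DBP at -398, in capitals as follows.
CRY2, ROR element, chr11:45868950-45868979, plus strand: ttgcggcgtcaTAGGTCActgggcgggcta
DBP, ROR element, chr19:49140958-49140987, minus strand: ttgggcaaatgTAGGTCAgtgtcccgcctc
The remaining E'-boxes inside the windows were single matches, at -340 in CLOCK, 151 in CRY1, -200 in CRY2, 133 in DBP and -459 in BHLHE40. In CRY1 and CRY2 the match was on the other strand, as AACGTG.
CLOCK, E'-box, chr4:56412269-56412298, minus strand: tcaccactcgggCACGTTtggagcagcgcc
CRY1, E'-box, chr12:107487399-107487428, minus strand: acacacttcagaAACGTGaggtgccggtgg
CRY2, E'-box, chr11:45868826-45868855, plus strand: acacatggtaggAACGTGagggggcgggcc
DBP, E'-box, chr19:49140428-49140457, minus strand: cctcttgagttgCACGTTtctgcaccgagg

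TEF had the most E-boxes of the set, 3 in its window at -91, 20 and 330, a number reached by 57 gene TSSs (0.549%). A pair of them flanked the start, and the stretch is printed to show this, with E-boxes and a CCAAT box (as ATTGG) in capitals.
TEF, chr22:41777303-41777452, plus strand: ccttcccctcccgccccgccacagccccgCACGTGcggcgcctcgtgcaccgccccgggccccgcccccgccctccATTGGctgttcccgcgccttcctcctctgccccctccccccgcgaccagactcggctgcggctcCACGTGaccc
TEF, E-box at 330, chr22:41777741-41777770, plus strand: cacctggccccgCACGTGtctatcttatcc
BHLHE40 had an E-box at -271 and an E'-box at -459, both between its uaTSS and its start, and was the one gene without a CCAAT box.
BHLHE40, E-box, chr3:5020865-5020894, plus strand: agcgttgtccaaCACGTGagactcatgtga
BHLHE40, E'-box, chr3:5020677-5020706, plus strand: ggcaggttcgccCACGTTaccaacttctcc
In a window from 250 nt upstream to 50 nt downstream, an E-box remained in TEF only, which is 1 of the 9, against 9.56% of gene TSSs, and a D-box in PER2 only, against 0.443%.

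Of the 21 clock genes outside the set, 18 had a called gene TSS, 4 of them with more than 1. Over all 26175 genes, which include non-coding ones, 9758 had a call within 1000 nt of an annotated start. The authors searched for gene TSSs only around mRNA starts, so this share may be low for a list of coding genes. Antisense calls were counted per gene, over all of its gene TSSs. A uaTSS was called at 10 of the 18 and a daTSS at 8, with both at 4 and neither at 4. Counted per TSS, the shares over all gene TSSs were 53.1%, 28.4%, 17.5% and 35.9%, in that order. CSNK1E, counted as having both, had 2 gene TSSs, so its calls may belong to different ones. Beside the set of 9, where no gene had a daTSS without a uaTSS, 4 of these 18 did. Counted per TSS, the share over all gene TSSs was 11.0%. The difference between the 9 and the 18 was not tested, as the genes are few and were listed with earlier results of these data known. Of the 7 clock genes outside the set that were below FPKM 1, 4 still had a called gene TSS.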

How the data were processed

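Start-seq replicate 1 and 3 merged RNA-seq replicates of T47D/A1-2 cells were used. The second Start-seq library and the MNase-seq and FAIRE-seq libraries were not analysed here. The authors removed Start-seq reads of low mean quality, cut adapters with cutadapt 1.2.1 and aligned with Bowtie 0.12.8 to hg19. They called 1 gene TSS per search window around RefSeq starts, where some position had 5 or more 5′ ends. The call was the peak position of the window or of its densest bin, whichever lay nearer the RefSeq start. For antisense TSSs they took the peak position of the search space, with the same threshold. They also filtered daTSSs near annotated starts or sense reads. The deposited calls are single positions whose score is 0 throughout, so depth is unknown. RNA-seq libraries were strand-specific and poly-A enriched. The deposited FPKM values were made by the authors with TopHat 2.0.4, Picard and Cufflinks 2.2.1, with 1 value per gene after the replicates were merged. Merging leaves no replicate error.

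Positions were joined by gene symbol and identifier with pandas 2.3.3 in Python 3.11.15. ARNTL was matched to BMAL1 through RefSeq synonyms. Gene models were GENCODE version 44 lifted to GRCh37, and sequence was read with pysam 0.24.0. Locus starts, 0-based in the table, are printed 1-based. CpG islands were stretches of over 200 nt with at least 50% GC and an observed to expected CpG ratio of over 0.6, found with a scoring search (17 per CG). A TSS was assigned to an annotated gene within 1000 nt. The pseudocount for log2 was 0.1. The island, motif and percentile steps were tested on simulated data. With 1 condition and merged values no test was run, and shares over all features stand beside the main counts of calls, islands, initiators and motifs.

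The 9 genes, the clock and marker lists and the motifs were chosen with earlier results of these data known. An item of the clock list is not reported here and is left out of its counts. All 9 genes are named, and of the other clock genes and markers those with the highest and lowest FPKM of each role, with PER1, CIART, NFIL3, ARNTL2, KRT14 and the nuclear receptors of the closing section added after their values were seen. Alternatives were other sets of genes to rank among, a pseudocount of 1, other locus widths, antisense distances and joins, stricter islands and other motif windows.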

Additional observations from a re-analysis of the deposited data

How the results depend on the processing

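Of 17 alternatives, 10 left a count within 1.5 times its value, 7 moved a count by more or changed a median at all, and 0 reversed a sign. The median FPKM percentile of the 9 genes, 63.5 among all genes, was 47.8 among genes above FPKM 0, 22.2 among genes at or above FPKM 1 and 19.7 among genes with a gene TSS. The log2 difference to genes with a gene TSS, -1.83, was -1.65 with a pseudocount of 1 and -1.98 among genes at or above FPKM 1. From 250 nt upstream to 50 nt downstream, 1 gene had an E-box and 1 a D-box. With 1000 nt on each side these counts were 4, against 32.9% of gene TSSs, and 2, against 5.56%. Without widening the locus, 7 genes had a gene TSS, as the calls of PER2 and PER3 lie outside theirs. 5 uaTSSs lay within 500 nt. The counts of daTSSs (4) and islands (8) did not change under their alternatives. With the stricter island the share over all gene TSSs was 71.0%, against 82.7% in the main search. Shares were not computed for the antisense distance limits.

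Leaving out a replicate was not possible, because FPKM values were merged and the calls come from 1 library. No paired analysis was possible because the results come from no test. No count of reads accompanies a call, so calls cannot be ranked by depth, and a missing antisense call says only that the calling threshold or filters were not passed.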

Other observations

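Some nuclear receptors of the second clock loop had a daTSS and no uaTSS, an arrangement not called in the 9 genes. This was noticed after the values were seen and was not tested. Of 4 receptors counted, 3 had a daTSS and no uaTSS: NR1D1, NR1D2 and RORB. Each of these had 1 called gene TSS. RORA had 3 gene TSSs, with 1 uaTSS and no daTSS. The arrangement was not particular to the receptors, as the kinase gene CSNK1D also had a daTSS and no uaTSS. Over all gene TSSs this class held 1141 of 10391 (11.0%), and none of the 9 genes was in it. With 9 genes, that absence does not set them apart. NR1D1, which encodes REV-ERB alpha, was called at 38256985 on the minus strand of chromosome 17, with a daTSS 485 nt downstream and FPKM 2.95. NR1D2, which encodes REV-ERB beta, was called at 23986837 on chromosome 3, with a daTSS 1216 nt downstream and FPKM 12.2. RORB was called at 77111833 on chromosome 9, with a daTSS 208 nt downstream at FPKM 0.338. Levels of the 3 genes thus spanned values below and above FPKM 1.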
